A study of Mus musculus with 8 samples.

Results

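The 10 nuclear receptors described here belong to the metabolic programme of the liver and were followed through the histone acetylation data of mouse primary hepatocytes (MPH) under endoplasmic reticulum stress (ERS). They are Nr1h4, Nr0b2, Nr5a2, Nr1i2, Nr1i3, Rxra, Ppara, Nr1h3, Rarb and Thrb, taken by name with earlier results of these data known, which makes 10 of the 55341 gene symbols of the annotation and 10 of the 12261 genes with a transcription start site (TSS) in an H3K27ac region. H3K27ac is the acetylation of lysine 27 of histone H3, a mark of active promoters and enhancers. The hepatocytes came from male adult wild-type C57Bl6 mice, in 3 independent preparations. Each was cultured without serum and treated for 4 h with 1 µM thapsigargin, which blocks the calcium pump of the endoplasmic reticulum, or with the vehicle, 0.04% DMSO. Every treatment gave 3 H3K27ac ChIP-seq libraries and 1 input library, 8 libraries in all. Both groups were wild type and differed in the treatment alone, and cultured hepatocytes have left the tissue they came from. The study asked how acute ERS alters the regulatory regions of genes that define the hepatocyte.

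The deposited data were 3 lists of regions. Each region was tested in short bins. At a false discovery rate of 0.05, a region was UP where the bins with more H3K27ac under thapsigargin were at least 2 times as many as those with less, and DOWN in the opposite case. The third list held the regions called unchanged. There was 1 call per region over all libraries, with no value for a single library, so none of the differences described here has a replicate error or a test of its own, and the depth behind each call is unknown. Of 32196 regions, 5508 were UP (17.1%), 3376 were DOWN (10.5%) and 23312 were unchanged, so that DOWN regions made up 38.0% of the 8884 changed ones. Regions with a mixed response were left out of all 3 lists, so a position outside every region belonged to none of the 3 classes and was not thereby free of H3K27ac. All 5 hepatocyte marker genes (Alb, Apoa1, Fgb, Cps1, Krt18) had a TSS in a region, against 1 of 4 Kupffer cell, 1 of 4 cholangiocyte, 1 of 4 endothelial and 0 of 2 stellate cell markers.

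Nuclear receptors are transcription factors that read small lipophilic molecules. Most of those studied here bind DNA as a heterodimer with a retinoid X receptor, at pairs of a short hexamer, recruit corepressors without ligand and coactivators with it, and among those coactivators are the enzymes that acetylate H3K27. In hepatocytes they set bile acid synthesis and export (FXR, SHP, LRH-1), drug clearance (PXR, CAR), fatty acid oxidation (PPARα), cholesterol disposal (LXRα), and the responses to retinoic acid (RARβ) and thyroid hormone (TRβ).

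At 4 of the 10 genes a TSS lay in a DOWN region, namely Nr1h4, Nr5a2, Nr1i2 and Rarb. At 1, Rxra, a TSS lay in an UP region, and at 5 (Nr0b2, Nr1i3, Ppara, Nr1h3 and Thrb) every TSS in a region lay in an unchanged one. Since the genes were chosen with earlier results known, their counts describe them and are no independent evidence of a direction. Over the 12261 genes, 8.91% had a TSS in a DOWN region, 21.4% in an UP region and 70.1% in unchanged regions alone. The receptors' share with a DOWN TSS was 40% (95% Wilson interval 16.8 to 68.7%, counting error only) and with an UP TSS 10% (1.79 to 40.4%). The width of the region moved with these shares. The widest region at a TSS of a receptor gene had a median of 3774.5 bp, against 1850 bp over the 12261 genes, and, in a comparison added after the data had been seen, among the 2330 genes whose widest TSS region was at least as wide as the receptors' median, 25.8% had a DOWN TSS and 29.1% an UP TSS. The part of width in the receptors' share was not tested.

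The promoters at which the genes differed are shown first. A promoter here is a group of annotated TSSs of a gene within 500 bp of each other, numbered from the most upstream, and the 10 genes had 26 of them: 4 in DOWN regions, 1 in an UP region, 12 in unchanged regions and 9 in no region. The 250 bases before the most upstream TSS of each shown promoter were read from GRCm38.p6 (the mm10 sequence), on the strand of the gene, 5′ to 3′. Nr1h4 and Nr5a2 are shown with a DOWN and an unchanged promoter each, Nr1i2 because its only promoter lay in the widest DOWN region near these genes, and Nr0b2 because its promoter was unchanged beside a DOWN region downstream. Capitals mark matches, on either strand, to the receptor hexamer AGGTCA, the FOXA letters TGTTTAC and the ATF4/CHOP letters TGATGNAA.
Nr1h4 promoter 1 (DOWN, chr10:89533586-89533835, minus strand): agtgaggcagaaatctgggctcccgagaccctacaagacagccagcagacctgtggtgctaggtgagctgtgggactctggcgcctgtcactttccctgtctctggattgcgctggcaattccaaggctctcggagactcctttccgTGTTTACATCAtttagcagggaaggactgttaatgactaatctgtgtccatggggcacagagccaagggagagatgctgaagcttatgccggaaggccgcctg
Nr1h4 promoter 2 (unchanged, chr10:89506659-89506908, minus strand): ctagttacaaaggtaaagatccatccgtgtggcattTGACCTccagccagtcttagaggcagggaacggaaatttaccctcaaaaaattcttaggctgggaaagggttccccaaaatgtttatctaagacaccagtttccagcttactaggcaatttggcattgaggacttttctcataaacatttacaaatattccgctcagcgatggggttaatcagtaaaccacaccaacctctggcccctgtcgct
Nr5a2 promoter 1 (unchanged, chr1:136960449-136960698, minus strand): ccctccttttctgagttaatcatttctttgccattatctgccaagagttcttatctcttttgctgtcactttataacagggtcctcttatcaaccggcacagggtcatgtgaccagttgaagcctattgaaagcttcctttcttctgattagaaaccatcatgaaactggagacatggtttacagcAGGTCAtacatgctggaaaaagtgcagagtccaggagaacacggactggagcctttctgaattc
Nr5a2 promoter 3 (DOWN, chr1:136949563-136949812, minus strand): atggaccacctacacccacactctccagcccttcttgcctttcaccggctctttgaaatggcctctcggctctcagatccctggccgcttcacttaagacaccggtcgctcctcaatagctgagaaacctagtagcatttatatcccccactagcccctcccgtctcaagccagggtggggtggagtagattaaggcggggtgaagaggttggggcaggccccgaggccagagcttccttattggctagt
Nr1i2 promoter (DOWN, chr16:38294825-38295074, minus strand): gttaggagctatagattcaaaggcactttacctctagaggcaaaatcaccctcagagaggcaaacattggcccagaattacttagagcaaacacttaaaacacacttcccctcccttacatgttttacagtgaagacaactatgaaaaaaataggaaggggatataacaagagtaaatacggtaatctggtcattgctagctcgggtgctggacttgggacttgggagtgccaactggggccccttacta
Nr0b2 promoter (unchanged, chr4:133553126-133553375, plus strand): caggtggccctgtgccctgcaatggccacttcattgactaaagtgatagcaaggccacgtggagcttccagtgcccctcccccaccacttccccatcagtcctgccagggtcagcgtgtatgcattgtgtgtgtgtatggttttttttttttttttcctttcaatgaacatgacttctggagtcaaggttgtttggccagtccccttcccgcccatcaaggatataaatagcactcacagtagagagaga

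Motif matches in these windows were few. The hexamer was found in 5 of the 26 receptor gene promoters, against 14.0% of 32851 RefSeq promoters of mouse genes over the same 250 bases. The 26 were built from all GENCODE transcripts, non-coding ones included, so the 2 sets of promoters are defined differently. Among those with the hexamer, promoter 3 of Rxra, promoter 3 of Ppara and promoter 2 of Thrb lay in no region. FOXA letters were in 1 of 26 (3.17% of all), ATF4/CHOP letters in 2 (3.45%), AP-1 letters TGANTCA in 2 (6.75%), and either form of the D-box, TTATGTAA or TTACGTAA, in 1 (0.931%). The HNF4 letters CAAAGTCCA (0.384% of all promoters) and the ERS response element, a longer bipartite motif bound by NF-Y and ATF6 (0.113%), were in none of the 26. In promoter 1 of Nr1h4, the FOXA match at -103 to -97 from the TSS and the ATF4/CHOP match at -100 to -93 shared bases and are read as a single run of capitals above. Promoter 2 of Nr1h4 held the hexamer from -214 and promoter 1 of Nr5a2 held it from -64, counted from the TSS, while the windows of Nr5a2 promoter 3, Nr1i2 and Nr0b2 held no match to any of the motifs.

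**Figure D1:**
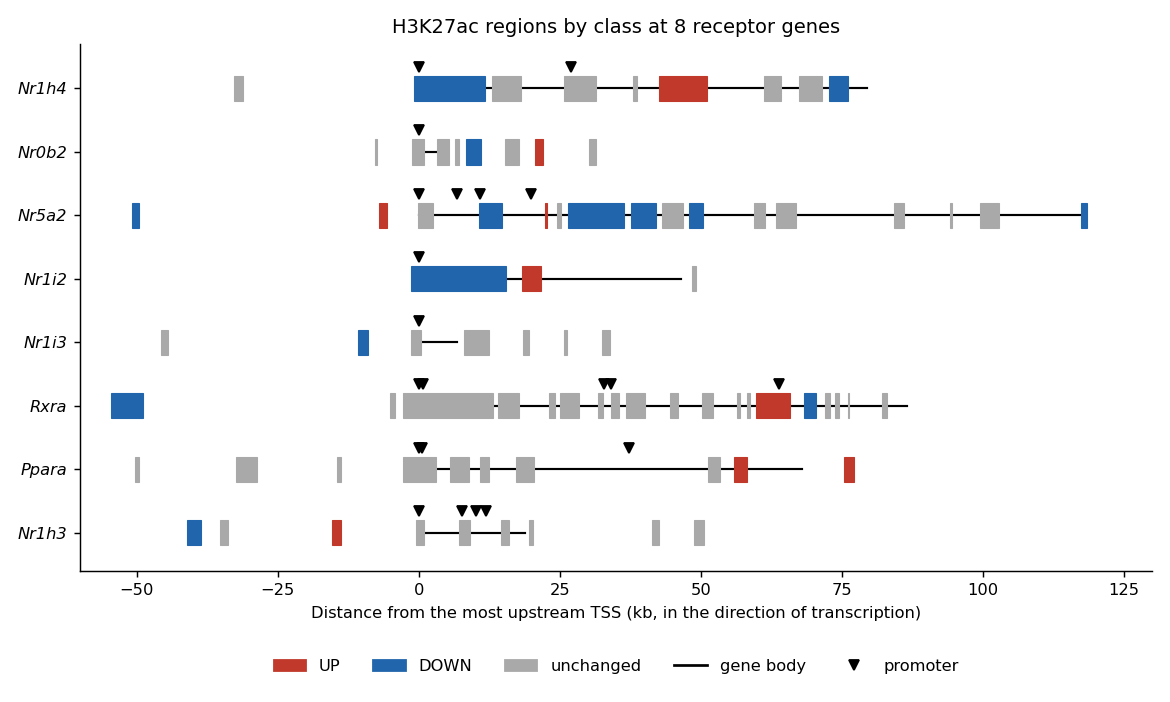
H3K27ac regions at 8 of the receptor genes, drawn to scale by distance in kb from the most upstream TSS in the direction of transcription. Boxes are regions coloured by class, black lines the gene bodies and triangles the promoters. The start of Nr1h4 and of Nr1i2 lies in a wide DOWN region, and Nr5a2 carries 5 DOWN regions in its body.

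Nr1h4 encodes FXR, the bile acid receptor, which shuts down bile acid synthesis when bile acids are high. The gene (ENSMUSG00000047638.15) spans chr10:89454234-89533585 on the minus strand, with 3 transcripts from 2 promoters. Promoter 1, the more upstream, lay in a DOWN region of 12673 bp (chr10:89521833-89534505) that reached 920 bp upstream of the TSS and 11752 bp into the gene. Promoter 2, whose window is shown above beside it, lay in an unchanged region of 5773 bp (chr10:89502097-89507869). The same gene thus began in a DOWN region from its upstream promoter and in an unchanged region from its downstream one. An UP region of 8461 bp (chr10:89482472-89490932) that included exonic sequence lay further inside the gene, and a DOWN region of 3329 bp (chr10:89457593-89460921) lay in an intron near its end. DOWN regions covered 19.0% of the gene body and UP regions 10.7%, and regions of any class covered 53.2% of it.

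Nr5a2 encodes LRH-1, a receptor that binds DNA as a monomer and drives bile acid synthesis genes such as Cyp7a1 and Cyp8b1. The gene (ENSMUSG00000026398.14, chr1:136842571-136960448, minus strand) had 6 transcripts from 4 promoters. Promoter 1 lay in an unchanged region of 2633 bp (chr1:136957965-136960597), and promoter 3 in a DOWN region of 4032 bp (chr1:136945712-136949743) that reached only 181 bp upstream of the TSS and 3850 bp downstream. Promoters 2 and 4 lay in no region, with the nearest regions a DOWN one 3887 bp away and an UP one 2492 bp away. Beyond the promoter, 4 more DOWN regions lay in the body: intronic ones of 9895, 4434 and 2459 bp, spaced by 1297 bp between the first and second, and one of 931 bp across the 3′ end of the gene. One more DOWN region, of 1330 bp, lay 49482 bp upstream of the nearest TSS. The 2 UP regions near the gene were small, 323 bp in an intron and 1300 bp upstream. With 5 DOWN regions within 50 kb of its TSSs, Nr5a2 stood among the 0.498% of genes with as many or more, and with 5 in its body among the 0.188%. These shares take no account of gene length or of the number of TSSs.

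Nr0b2 encodes SHP, a receptor without a DNA-binding domain that is induced by FXR and represses LRH-1. The gene (ENSMUSG00000037583.2, chr4:133553376-133556536, plus strand) has 1 transcript, and its promoter lay in an unchanged region of 2087 bp (chr4:133552152-133554238). A DOWN region of 2662 bp (chr4:133561695-133564356) lay 8319 bp downstream of the TSS, beyond the end of the gene, and overlapped no other TSS. Further on, an UP region of 1369 bp held the TSS of Gpatch3, and 6 regions within 50 kb were unchanged. SHP thus had its promoter unchanged and its only nearby DOWN region outside the gene.

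The study's own ChIP-qPCR primers place its promoter and enhancer assays at Nr0b2 and Nr5a2 within these classes. Each primer matched the genome at 1 place, and they are shown because the amplicons say which region the assays read.
Nr0b2 promoter forward: gcagtcccaggcactggctggttga
Nr0b2 promoter reverse: gcctggatgccctttatcggatgac
Nr0b2 enhancer forward: acatgctaatgaagctggtgacg
Nr0b2 enhancer reverse: tcaagtccccgttgttgacct
Nr5a2 promoter forward: cccacagcctggcagaagt
Nr5a2 promoter reverse: tggggtaggggcagtttctc
Nr5a2 enhancer forward: gaagcagagctggctgttgg
Nr5a2 enhancer reverse: attggtgctcctgtgccaga
The Nr0b2 promoter amplicon (110 bp, chr4:133553010-133553119) fell in the unchanged region at the TSS, and the enhancer amplicon (71 bp, chr4:133563405-133563475), centred 10064 bp downstream of the TSS, fell in the DOWN region described above. For Nr5a2 the promoter amplicon (70 bp, chr1:136946272-136946341) was centred 3256 bp downstream of the TSS of promoter 3 and inside its DOWN region. The Nr5a2 enhancer amplicon (131 bp, chr1:136926082-136926212) fell in the intronic DOWN region of 9895 bp. Of the 4 amplicons 3 were therefore in DOWN regions, and none read promoter 1 of Nr5a2.

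Nr1i2 encodes PXR, which senses foreign compounds and bile acids and induces Cyp3a11. The gene (ENSMUSG00000022809.4, chr16:38248323-38294824, minus strand) has 1 transcript, and its TSS lay in a DOWN region of 16806 bp (chr16:38279424-38296229), the widest of the 109 regions in or near the 10 genes. That region reached 1405 bp upstream and 15400 bp downstream of the TSS and covered 33.1% of the gene body. An intronic UP region of 3343 bp (chr16:38273191-38276533) followed after a gap of 2890 bp and covered 7.19% of the body. Only 1 further region, unchanged, lay within 50 kb.

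Nr1i3 encodes CAR, the other xenobiotic receptor, which induces Cyp2b10. The gene (ENSMUSG00000005677.14, chr1:171213970-171220701, plus strand) has 8 transcripts from 1 promoter, in an unchanged region of 1795 bp (chr1:171212600-171214394). Its only changed neighbour was a DOWN region of 1908 bp that ended 8899 bp upstream of the TSS, and there was no UP region within 50 kb. The 2 xenobiotic receptors therefore differed in the class at their promoters, while each had 1 DOWN region within 50 kb.

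Rxra encodes RXRα, the shared heterodimer partner of most of the others. The gene (ENSMUSG00000015846.14, chr2:27676440-27762957, plus strand) had 6 transcripts from 5 promoters. Promoters 1 and 2, the starts of 3 coding transcripts, lay together in an unchanged region of 15844 bp (chr2:27673736-27689579), promoter 4 in an unchanged region of 1517 bp, and promoter 3 lay 201 bp outside the nearest region, also unchanged. The UP call came from promoter 5 alone, the start of a non-coding processed transcript deep in the gene, in a region of 6016 bp (chr2:27736262-27742277). A DOWN region of 2063 bp followed it after 2407 bp, and a DOWN region of 5666 bp lay 48840 bp upstream of the gene. With protein-coding transcripts alone, or with the basic set of transcripts alone, no receptor gene had an UP TSS. Within 50 kb the gene had 2 DOWN regions and 1 UP region, but by base pairs inside that window DOWN minus UP was -2792 bp, since the UP region was wide and much of one DOWN region fell outside the window.

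Ppara encodes PPARα, the fatty acid sensor that drives fasting fatty acid oxidation, and was the only one of the 10 with no DOWN region within 50 kb. The gene (ENSMUSG00000022383.13, chr15:85734983-85802819, plus strand) had 6 transcripts from 3 promoters. Promoters 1 and 2 lay in an unchanged region of 5890 bp, and promoter 3 lay in no region, 13992 bp from the nearest. An UP region of 2204 bp that included exonic sequence lay in the body, and one of 1847 bp beyond the gene held the TSS of Cdpf1. All 8 other regions within 50 kb were unchanged. Both UP regions were near the non-coding promoter 3 and not the coding ones, since with protein-coding transcripts alone the gene had no changed region within 50 kb.

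Nr1h3 encodes LXRα, the oxysterol receptor behind cholesterol efflux and lipogenesis. The gene (ENSMUSG00000002108.10, chr2:91184061-91202834, minus strand) had 8 transcripts from 4 promoters. Promoter 1 lay in an unchanged region of 1484 bp shared with the TSSs of Acp2 and Gm13783, promoter 2 in an unchanged region of 1969 bp, and promoters 3 and 4 lay in none. An UP region of 1552 bp and a DOWN region of 2550 bp, both upstream, were the only changed regions within 50 kb.

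**Figure D2:**
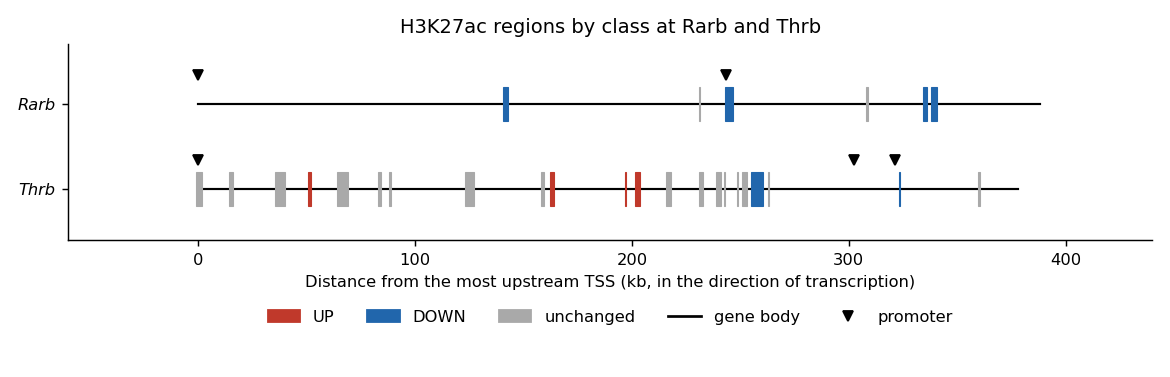
H3K27ac regions at Rarb and Thrb, drawn as for the other genes on a longer axis in kb from the most upstream TSS. Boxes are regions coloured by class, black lines the gene bodies and triangles the promoters. The 4 changed regions of Rarb are all DOWN, whereas Thrb has 4 UP regions in its body and 2 DOWN regions nearer its downstream promoters.

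Rarb encodes RARβ, a retinoic acid receptor whose own downstream promoter is a textbook retinoic acid target. The gene (ENSMUSG00000017491.9, chr14:16430839-16819156, minus strand) had 7 transcripts from 2 promoters. Promoter 1 lay in no region, 140678 bp from the nearest, and promoter 2 lay in a DOWN region of 3517 bp (chr14:16572693-16576209) that also held the TSS of Gm48162, so that the call cannot be given to 1 gene of the pair. In addition, 3 intronic regions of 2628, 1793 and 1953 bp, all over 90 kb from a TSS of the gene, were DOWN as well. With 4 DOWN regions, 0 UP and 2 unchanged in its body, Rarb stood among the 0.400% of genes with at least 4 DOWN regions in the body. This share takes no account of gene length. The body spans 388318 bp, and DOWN regions covered 2.55% of it. The DOWN region at promoter 2 held a direct repeat of 2 hexamers with 5 bases between them, the arrangement known as DR5 that RAR and RXR bind together. It lies at chr14:16575513-16575529 on GRCm38.p6, minus strand, with its centre 22 bp downstream of the nearest annotated TSS. Matches to DR5 were rare in general, in 1.78% of all DOWN, 0.926% of all UP and 0.811% of all unchanged regions. The site is shown because it is the only DR5 in the 109 regions, with the hexamers in capitals.
Rarb DR5: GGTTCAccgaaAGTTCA

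Pairs of hexamers were searched in all regions after the data had been seen, as 2 copies of a hexamer (A or G, then G, then G or T, then TCA) in direct repeat with 1, 2, 4 or 5 bases between them (DR1, DR2, DR4, DR5) or inverted with 1 base between them (IR1). DR1 is bound by HNF4α and, with RXR, by PPARα, DR4 by LXR or thyroid hormone receptors with RXR, and IR1 by FXR with RXR. The search gave 10 matches in the 109 regions. The IR1 lay in the DOWN region at promoter 1 of Nr1h4, 7440 bp downstream of that TSS, and IR1 matches were in 0.474% of all DOWN regions. The 2 DR1 matches in DOWN regions were in the intronic region of 9895 bp in Nr5a2 and in an intronic region of Rarb. Over all regions, 4.21% of DOWN ones held a DR1, against 2.45% of UP and 1.97% of unchanged ones. Per kb, which allows for width, the classes were closer, at 0.0136 in DOWN, 0.0109 in UP and 0.0132 in unchanged regions. Nr1i2 had a DR1 and a DR2 in its intronic UP region, and DR2 matches were in 1.96% of all UP regions. No DR4 was found in any of the 109. Such matches were rare in general, in 1.57% of all DOWN, 0.726% of all UP and 0.661% of all unchanged regions. The sites in regions that were called DOWN or UP are shown on the strand of their gene, with the hexamers in capitals.
Nr1h4 IR1 (DOWN, chr10:89526139-89526151): AGTTCAgTGAACT
Nr5a2 DR1 (DOWN, chr1:136926327-136926339): TGACCCcTGACCT
Rarb DR1 (DOWN, chr14:16677128-16677140): GGGTCAaAGTTCA
Nr1i2 DR1 (UP, chr16:38273609-38273621): TGACCTcTGACCT
Nr1i2 DR2 (UP, chr16:38274522-38274535): GGTTCAgaGGTTCA

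A match is a run of letters and no evidence of binding, and wider regions hold more of them by length alone.

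Thrb encodes TRβ, the main thyroid hormone receptor of hepatocytes. The gene (ENSMUSG00000021779.17, chr14:17660261-18038090, plus strand) had 7 transcripts from 3 promoters. Promoter 1 lay in an unchanged region of 2519 bp, and promoters 2 and 3 lay in no region, 20623 and 1915 bp from the nearest, both DOWN. Its body held 4 UP regions, of 1180, 1565, 465 and 2670 bp, 2 DOWN regions, of 5536 and 581 bp, and 16 unchanged ones. All 6 changed regions were intronic, and 0.775% of genes had at least as many UP regions in the body. That share also takes no account of gene length. The body spans 377830 bp, of which UP regions covered 1.56% and DOWN regions 1.62%. Although UP regions were the more numerous in the body, DOWN bases exceeded UP bases by 237 bp.

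**Figure D3:**
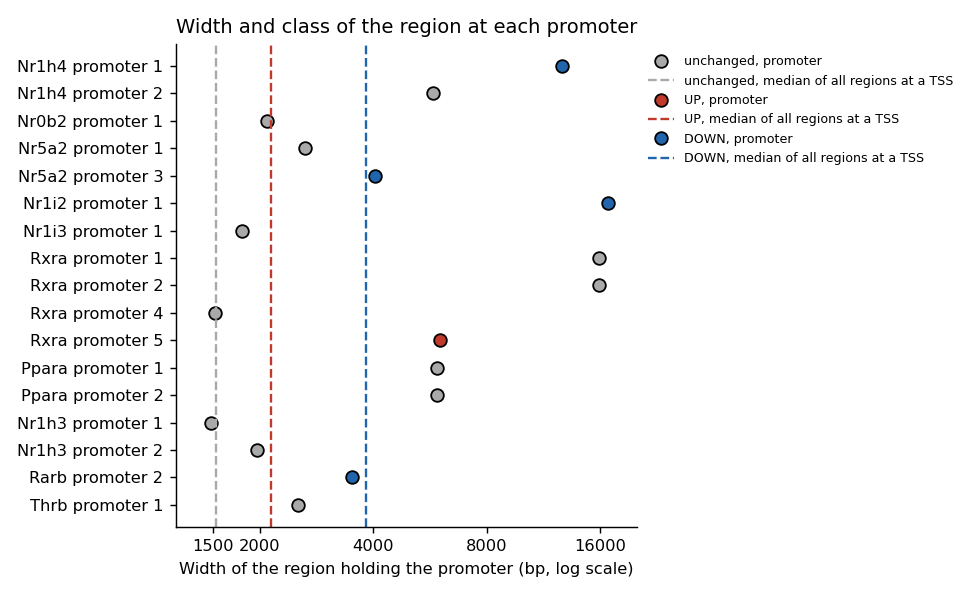
Width in bp, on a log axis, of the region that holds each of the 17 receptor gene promoters found in a region, coloured by class. Dashed lines are the medians over all regions at a TSS, 1530 bp for unchanged, 2136 bp for UP and 3828.5 bp for DOWN. The DOWN regions at Nr1h4 promoter 1, Nr5a2 promoter 3 and Nr1i2 lie above the DOWN median, and the unchanged region over Rxra promoters 1 and 2 is wider than that at Nr1h4 and narrower than that at Nr1i2.

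Across the 10 genes, the regions that held their promoters ranged from 1484 to 16806 bp. The 4 DOWN regions at a TSS measured 3517, 4032, 12673 and 16806 bp, which places Rarb below and the other 3 above the median of 3828.5 bp over all DOWN regions at a TSS. The 4 DOWN regions had a median of 8352.5 bp and the 10 unchanged regions at a TSS one of 2303 bp. Their widths overlapped, because the unchanged region at the start of Rxra was wider than the DOWN region at Nr1h4. Of the 4 genes with TSSs in more than 1 region, 3 (Nr1h4, Nr5a2 and Rxra) had regions of different class, and Nr1h3 did not. Over all 1002 genes with TSSs in 2 or more regions, 47.5% had regions of different class.

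**Figure D4:**
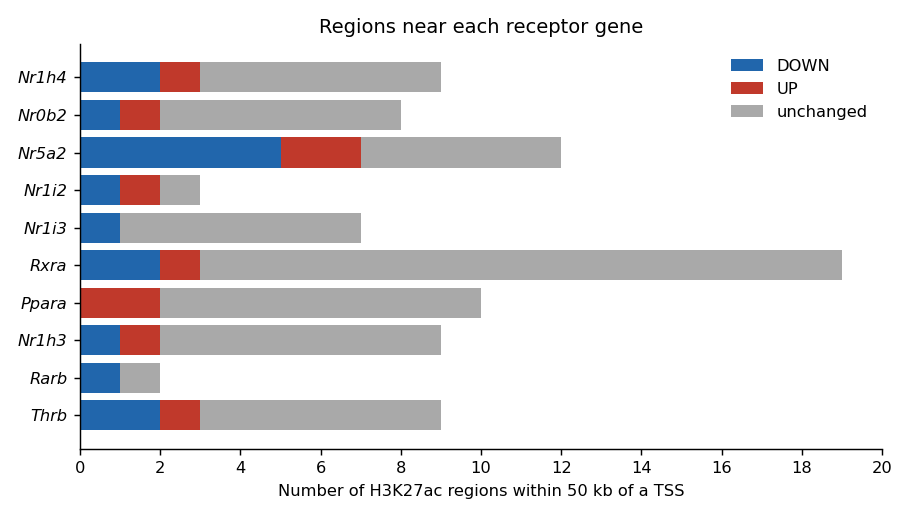
Number of H3K27ac regions within 50 kb of any TSS of each receptor gene, stacked by class. Nr5a2 has the most DOWN regions, 5, and Ppara has none, while Rxra has the most regions, 16 of them unchanged.

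Within 50 kb of any of their TSSs the 10 genes had 88 regions, 16 DOWN, 10 UP and 62 unchanged. DOWN regions made up 61.5% of the 26 changed ones (95% Wilson interval 42.5 to 77.6%), against the 38.0% over all changed regions. The interval treats regions as independent, which regions of 1 gene are not, and Nr5a2 alone gave 5 of the 16. At 9 genes, all but Ppara, there was at least 1 DOWN region within 50 kb, against 31.9% of all genes with a TSS in a region, and at 8, all but Nr1i3 and Rarb, at least 1 UP region, against 53.0%. More DOWN than UP regions were found at 6 genes (Nr1h4, Nr5a2, Nr1i3, Rxra, Rarb, Thrb; 19.3% of all genes), more UP than DOWN at 1 (Ppara; 41.5%), and equal numbers at 3. The searched windows spanned 100001 to 219345 bp, the longest at Thrb and Rarb, and genes in the background were not matched for this.

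In the gene bodies there were 80 regions, 15 DOWN, 9 UP and 56 unchanged, so that DOWN regions were 62.5% of the 24 changed ones (42.7 to 78.8%). At 6 genes the body held at least 1 DOWN region (15.0% of all genes) and at 6 at least 1 UP region (29.7%). Genes in this background were not matched for length. The 2 sets of 6 shared Nr1h4, Nr5a2, Nr1i2, Rxra and Thrb and differed by Rarb, with DOWN only, and Ppara, with UP only. Leaving out the regions at a TSS of the gene itself, 11 of the 19 changed regions in the bodies were DOWN, 57.9%. Counting every region in a body or within 50 kb once, the 10 genes had 109, of which 20 were DOWN, 13 UP and 76 unchanged. Of the 20 DOWN regions 5 overlapped an exon of the gene, 10 were intronic and 5 lay outside it, and of the 13 UP regions these numbers were 3, 6 and 4.

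**Figure D5:**
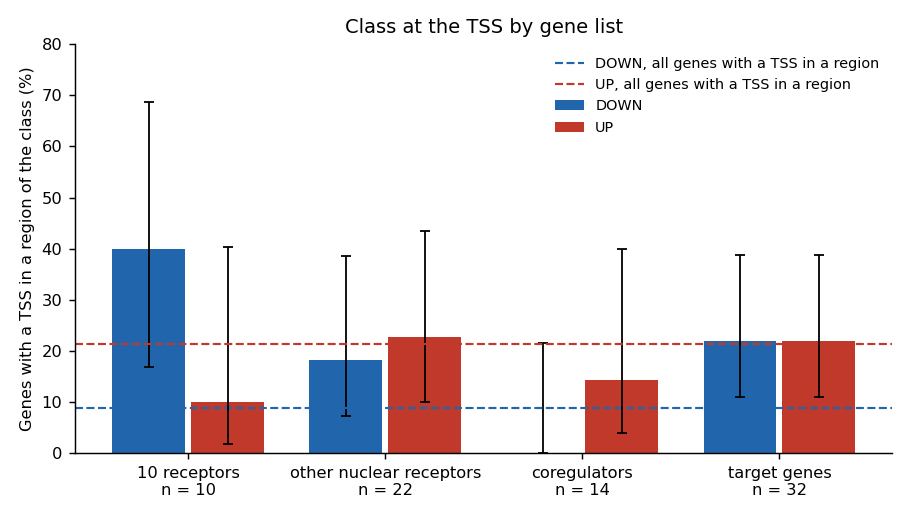
Share in percent of genes with a TSS in a DOWN or an UP region, for the 10 receptors and for 3 other gene lists, each over its members with a TSS in a region. Error bars are 95% Wilson intervals of counting error and dashed lines the shares over all 12261 genes. The receptors have 40% DOWN, the other nuclear receptors 18.2%, the coregulators 0 of 14 and the target genes 21.9%.

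The other 39 mouse nuclear receptors had a TSS in a region in 22 cases and in none in 17. Of the 22, 4 had a DOWN TSS (18.2%, 7.31 to 38.5%), against 8.91% of the 12261 genes. An UP TSS was found at 5 (22.7%, 10.1 to 43.4%), against 21.4%, and 14 had unchanged TSSs alone. Rara is in both counts. The UP share was thus near that of all genes, and both intervals include the share over all genes. The DOWN ones were Hnf4a, the master regulator of hepatocyte identity, in a region of 13466 bp, Rara in one of 5401 bp, Nr2f6 in one of 5045 bp and Nr2f2 in one of 3438 bp. The UP ones other than Rara included Nr6a1 (6296 bp), the circadian repressor Nr1d1 (5500 bp) and the immediate-early gene Nr4a2 (839 bp). The intervals of the 10 receptors and the other receptors overlapped, and the difference between them was not tested.

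The list of coregulators that nuclear receptors recruit held 16 genes. Of 14 with a TSS in a region, none had a DOWN TSS (0 to 21.5%), against 8.91% of the 12261 genes. An UP TSS was found at 2 (14.3%, 4.01 to 39.9%), against 21.4%, namely the corepressor subunits Hdac3 (2189 bp) and Gps2 (1082 bp). Both intervals include the share over all genes. The other 12 had unchanged TSSs alone, including both H3K27 acetyltransferase genes Ep300 and Crebbp. The TSSs of Ppargc1a and Prox1 lay in no region, and these 4 genes are named after their values were seen.

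Of 48 textbook target genes of the 10 receptors, 32 had a TSS in a region, with 7 DOWN, 7 UP and 20 unchanged alone, and Acadm and Por in both counts. Each count of 7 was 21.9% of the 32 (11.0 to 38.8%), beside 8.91% DOWN and 21.4% UP over the 12261 genes. Among the 2330 genes with a TSS region at least as wide as the receptors' median, 25.8% were DOWN and 29.1% UP. The UP share of the targets was thus near that of all genes, and no difference was tested. The widest DOWN region was at Angptl4 (12320 bp), a PPAR target that inhibits lipoprotein lipase. It was followed by Cyp3a11, the PXR-induced drug oxidase (4128 bp), the exporter gene Abcc3 (4014 bp), Creb3l3 (3903 bp), Acadm (3522 bp), the haem synthesis gene Alas1 (2761 bp) and Por (1165 bp). UP regions were at Lpcat3, an LXR target of phospholipid remodelling (19575 bp), the canalicular exporter gene Abcc2 (13961 bp), Por (8845 bp), Acadm (6652 bp), Klf9 (5984 bp), Pdk4 (3622 bp) and the hormone gene Fgf21 (2187 bp). Among the PPARα targets, Angptl4 and Creb3l3 thus started in DOWN regions, Pdk4 and Fgf21 in UP regions and Acadm in both. The TSSs of 16 target genes lay in none of the 3 classes, among them Cyp7a1, Cyp2b10, Cyp4a10 and Cyp4a14, which are named after their values were seen.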

How the data were processed

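H3K27ac ChIP-seq of MPH was given by the authors as 3 deposited BED lists, whose only values are positions in bp on mm10, with no other unit and no sample columns. Per the labels and the study's methods, reads were aligned with Bowtie, duplicates and blacklisted positions removed, and broad peaks called with MACS2 on pooled libraries against input. csaw 1.6.1 tested 150 bp bins (reads extended to 200 bp, filtering against input, loess normalisation, quasi-likelihood with the preparation as a paired factor), and bins were combined per peak at an FDR of 0.05. A peak was UP where its UP bins numbered at least 2 times its DOWN bins, DOWN where that ratio was at most 0.5, and was discarded in between, so regions with a mixed response are missing from the counts. Versions of Bowtie and MACS2 are not given in the sources used here.

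Here the lists were intersected with all transcripts of GENCODE M21 on GRCm38.p6 (141767 transcripts), with positions counted from 1 and any overlap of 1 bp taken. The study assigned genes with another release and a further tool, not repeated. TSSs within 500 bp formed a promoter. Windows reached 50 kb to each side of each TSS. Counts were described against all genes with a TSS in a region, with no test. Alternatives were other windows (10 and 100 kb), transcript sets, region centres, base pairs, regions of at least 1 kb, and a region that covers 500 bp on each side of the TSS. The scripts were tested on simulated lists. The 10 receptors and every TSS and region of theirs are named, and of the other 3 lists the genes with a TSS in a changed region, in order of width, except 1 that is not reported here. The receptors and lists were chosen with earlier results of these data known. Motif letters were searched on both strands. RefSeq promoters matched the genome in 14 receptor gene entries. Python 3.11.15, pandas 2.3.3, statsmodels 0.14.6 and matplotlib 3.10.9 were used.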

Additional observations from a re-analysis of the deposited data

How the results depend on the processing

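Of 141 recomputed values 114 kept their direction within the set limits, 25 moved and 2 reversed. No receptor gene had an UP TSS with protein-coding transcripts alone (0) or with basic transcripts alone (0), and 1, Nr1i3, had no TSS region when a region had to cover 500 bp on each side. The share of DOWN among changed regions ran from 60.9 to 73.7% over the settings with the 50 kb window. It was 75.0% within 10 kb and 61.1% within 100 kb, and ran from 57.9 to 72.7% in the gene bodies. The 73.7 and 72.7% are shares of base pairs, to which the 38.0% of region counts does not apply. Over all regions, DOWN ones held 10888799 bp and UP ones 12847435 bp. By base pairs, DOWN minus UP reversed within 50 kb of Rxra (-2792 bp) and in the body of Thrb (237 bp). The other values that moved were single-gene differences, most often of 1 region. No paired analysis was possible because the lists hold no value per library, and for the same reason no preparation could be left out and no stricter FDR applied. A region's class says nothing of the size of its change, and the depth behind it is unknown.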

Other observations

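Motif letters were also counted over the whole of the 109 regions in or near the receptor genes, as matches per kb, and set beside all regions of the same class. FOXA letters came to 0.219 per kb in the 20 DOWN regions of the receptor genes, from 19 matches, and 0.176 in all DOWN regions. HNF4 letters came to 0.0115 per kb in their DOWN regions, from 1 match, and 0.0279 in all DOWN regions. The D-box came to 0.0461 in their DOWN regions and 0.124 in their UP regions, each from 4 matches, against 0.0446 and 0.0420 over all. The ERS response element had no match in the receptor genes' regions and was in 0.309% of all UP regions. ATF4/CHOP letters came to 0.208 per kb in their DOWN regions and 0.155 in their UP regions, whereas over all regions the order was the opposite, 0.147 in DOWN and 0.215 in UP. These rest on 18 and 5 matches in the receptor genes' regions. The receptor hexamer AGGTCA was less dense in the DOWN regions of the receptor genes, 0.657 per kb, than in all DOWN regions, 0.840, and AP-1 letters were denser in UP than in DOWN regions in both sets (0.495 against 0.380 for the receptor genes, 0.586 against 0.373 over all). None of these differences was tested, and matches within a region share its base composition.

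Of the hepatocyte markers, Apoa1 (14886 bp), Fgb (10425 bp) and Krt18 (8218 bp) started in DOWN regions, and Alb and Cps1 in unchanged ones. Of the other cell types' markers, the cholangiocyte gene Sox9 had a TSS in an UP region of 2906 bp, and Cd68 and Stab2 in unchanged ones.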
